A study of Mus musculus with 59 samples.

Results

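The 8 genes described here mark the primitive endoderm and the layers that arise from it. They are *Gata4*, *Gata6*, *Sox7*, *Sox17*, *Pdgfra*, *Dab2*, *Cubn* and *Hnf4a*, chosen by symbol, and all 8 were found among the 24391 genes listed in each of the 59 RNA-seq libraries. The libraries came from mouse embryonic stem cells (ESCs) and from embryoid bodies (EBs), the aggregates that ESCs form over 2 days in low-attachment dishes without LIF and the inhibitors SU5402, PD184352 and CHIR99021. 6 conditional lines were sequenced. The values are in TPM, transcripts scaled to a fixed total, so each library adds up to 1000000 and the read depth behind a value is unknown.

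Each line carries a Cre recombinase fused to a modified oestrogen receptor (ERT2-Cre). In the lines other than the point mutant it sits at the *Rosa26* locus and the cells came from blastocysts, which is not stated for the point mutant line in the sources used here. In every line the mutant cells received 4-OHT and the control cells did not. By the study's account, *Pcgf1* to *Pcgf5* were deleted ahead of EB formation. Loss of *Pcgf6* and of RING1B in the Ring1A/B line was started together with EB formation, so the length of loss differs between lines. The *Pcgf1* line compares ERT2-Cre;Pcgf1f/f controls with Pcgf1delta/delta cells (*Pcgf1*-KO) in 19 libraries, with 4 control ESC and 5 *Pcgf1*-KO ESC, 5 control EB and 5 *Pcgf1*-KO EB libraries. The point mutant line compares Ring1apm/pm;Ring1b controls with Ring1apm/pm;Ring1bpm/pm cells, so its controls already carry the altered *Ring1a* alleles. The Ring1A/B line compares Ring1a-/-;Ring1bf/f with Ring1a-/-;Ring1bdelta/delta cells, so its controls already lack *Ring1a*. The remaining lines lose *Pcgf2* and *Pcgf4* (listed as *Bmi1*), *Pcgf3* and *Pcgf5*, or *Pcgf6*. Each of these 5 lines has 8 libraries, 2 per state and stage. ESCs were kept on mouse embryonic fibroblasts (MEFs), which express many of the same matrix genes as endoderm. The labels do not say that replicates came from separate cultures, so p-values measure only the spread between these libraries, which may be technical.

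The primitive endoderm is the layer that separates from the epiblast inside the blastocyst. It gives rise to the visceral and parietal endoderm of the yolk sac and, in EBs, to an outer layer of similar cells. GATA6, a zinc-finger transcription factor, is present early in the inner cell mass, and its paralogue GATA4 follows. Both can drive ESCs towards extraembryonic endoderm when they are forced on. SOX17 and SOX7 are HMG-box transcription factors of the same subfamily, and PDGFRA is the receptor for platelet-derived growth factor. DAB2 is an endocytic adaptor, CUBN (cubilin) is an uptake receptor of the visceral endoderm, and HNF4A is a nuclear receptor that turns on visceral endoderm secretory genes. The RING1 and PCGF proteins form Polycomb repressive complex 1 (PRC1), which places ubiquitin on histone H2A and keeps many developmental genes silent. GATA and SOX factors also act in heart and blood vessels, and PDGFRA is abundant in fibroblasts, so markers of those cells were measured beside them.

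In the mm9 assembly, annotated with GENCODE M1, *Sox17* lies on the minus strand at chr1:4481009-4486494 and *Pdgfra* on the plus strand at chr5:75548316-75594229. *Gata4* (minus strand, chr14:63817759-63890529) and *Sox7* (plus strand, chr14:64562511-64569569) are neighbours on one chromosome. *Cubn* lies on the minus strand at chr2:13197965-13413551, *Hnf4a* on the plus strand at chr2:163332544-163398646 and *Dab2* on the plus strand at chr15:6249788-6390712. Genes on the opposite strand overlap *Cubn*, *Hnf4a*, *Dab2* and *Gata6*. The strand setting of the counting is not given in the sources used here, so reads of these 4 genes and of their antisense neighbours cannot be told apart.

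Promoter sequence from RefSeq (GRCm38.p6) was used for 4 of the 8 genes, *Pdgfra*, *Cubn*, *Dab2* and *Hnf4a*, and the other genes' promoters were not analysed here. It is shown for *Pdgfra* and *Cubn*, which were called higher together in *Pcgf1*-KO EBs, and for *Dab2*, which was not. Each line gives the 250 bases before the start on the gene's own strand, with CpG dinucleotides, the sites that PRC1 with PCGF1 is known to be recruited to, in capitals. The windows are chr5:75152001-75152250 (plus), chr2:13491877-13492126 (minus) and chr15:6386498-6386747 (plus).
Pdgfra: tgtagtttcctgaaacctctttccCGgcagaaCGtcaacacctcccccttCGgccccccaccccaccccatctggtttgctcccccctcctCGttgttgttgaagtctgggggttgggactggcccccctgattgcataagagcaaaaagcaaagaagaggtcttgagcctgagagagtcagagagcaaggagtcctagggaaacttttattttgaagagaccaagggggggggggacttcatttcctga
Cubn: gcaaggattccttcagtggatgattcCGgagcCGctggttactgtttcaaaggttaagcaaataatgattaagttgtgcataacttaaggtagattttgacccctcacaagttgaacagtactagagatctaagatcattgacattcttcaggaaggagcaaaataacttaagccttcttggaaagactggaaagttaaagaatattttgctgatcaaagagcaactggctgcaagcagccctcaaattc
Dab2: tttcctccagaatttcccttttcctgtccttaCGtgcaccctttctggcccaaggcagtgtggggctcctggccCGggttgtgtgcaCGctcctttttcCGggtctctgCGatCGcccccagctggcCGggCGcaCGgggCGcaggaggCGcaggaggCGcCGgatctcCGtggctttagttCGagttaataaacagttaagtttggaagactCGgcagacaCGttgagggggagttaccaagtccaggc
The *Dab2* window held 17 CpGs, the *Pdgfra* window 4 and the *Cubn* window 2, beside a median of 6 over 32851 promoters. The *Dab2* window shown belongs to a downstream start. The upstream *Dab2* start (window chr15:6299539-6299788) had 2 CpGs, as *Cubn* had, so the CpG difference from *Dab2* depends on the start chosen. The *Hnf4a* starts had 3 and 4 CpGs. GATA words (AGATAA or AGATAG or TGATAA or TGATAG, on either strand) were in 2 of the 6 windows of these genes, one of *Hnf4a* and one of *Dab2*, and in 26.5% of all promoters. The SOX word AACAAT, on either strand, was in 0 of the 6 and in 9.42% of all promoters. Such a match is a match of letters, not a binding site.

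Before the results, the labels were checked against the data. In the *Pcgf1* and point mutant lines, *Klf4*, a naive pluripotency gene, was at 262 to 1664 TPM in the 13 ESC libraries and 3.54 to 122 in the 14 EB libraries, and *Fgf5*, an epiblast gene, was at 0 to 0.703 and 2.91 to 68.5. *Pcgf1* was at 7.30 to 16.6 TPM in the 9 control libraries and 0.627 to 2.77 in the 10 *Pcgf1*-KO libraries. The other 4 lines differ: in 21 of their 32 libraries the condition in the deposited file's name is not the condition in the label, and in 14 the stage itself differs. By file name, *Klf4* was at 120 to 766 TPM in the 16 ESC and 3.25 to 118 in the 16 EB libraries, and *Fgf5* at 0 to 0.816 and 7.53 to 46.3. By label both genes overlapped, with *Fgf5* reaching 35.2 TPM in a library labelled ESC. All tests below follow the labels. For these 4 lines the condition in the file name is given beside the values, and they are described as "the library labelled" so and so. By label, TPM of the targeted genes overlapped between mutants and controls in these 4 lines. By file name, 3 of the 7 targeted genes did not overlap. *Pcgf6* was at 67.1 to 104.6 TPM in the 4 libraries of its line named control and 34.7 to 46.3 in the 4 named mutant, *Pcgf5* at 21.33 to 24.7 and 15.6 to 21.30, and *Bmi1*, in the other direction, at 4.12 to 5.47 and 7.01 to 10.03. *Rnf2*, *Ring1*, *Pcgf2* and *Pcgf3* overlapped by file name as well. In the point mutant line *Rnf2*, which encodes RING1B, was at 66.6 to 85.8 TPM in controls and 54.5 to 64.6 in mutants, and TPM cannot show a point mutation.

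Over the 59 libraries the 8 genes were low. *Gata4* and *Dab2* each had a median of 2.56 TPM, *Gata6* 1.21, *Sox7* 0.653, *Sox17* 0.535, *Pdgfra* 0.490, *Hnf4a* 0.488 and *Cubn* 0.307. *Gata4* reached 1 TPM in 47 libraries and *Dab2* in 44, while *Sox17* and *Hnf4a* did so in 14. The highest value of *Gata6*, 68.2 TPM, was in a Ring1A/B mutant EB library, and that of *Dab2*, 39.7, in the *Pcgf6* line. In bulk libraries, fewer cells of a type and less RNA per cell cannot be told apart.

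The first question was how the genes change as control ESCs of the *Pcgf1* line become EBs. The uptake genes *Cubn* and *Dab2* rose, while *Hnf4a*, *Pdgfra* and *Sox17* fell. That is 5 of 8 genes called at an adjusted p under 0.05 (limma on log2(TPM + 0.1), Benjamini-Hochberg over 20594 genes), where 24.9% of all genes were called, 11.5% of them higher and 13.4% lower as shares of all genes.

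*Dab2* stood at 1.21, 0.917, 1.10 and 1.10 TPM in control ESCs and at 10.3, 12.8, 14.2, 3.60 and 4.64 in control EBs. The groups did not overlap, and the EB libraries of replicates 1 to 3 were the higher ones. The log2 fold change between the groups came to 2.77, with a standard error (SE) of 0.39 and an adjusted p = 4.14e-05. *Cubn* was near the floor in control ESCs, at 0.0197, 0.0375, 0.0501 and 0.107 TPM, and at 0.509, 0.307, 0.451, 1.66 and 1.73 in control EBs. Here replicates 4 and 5 were the higher EB libraries, the reverse of *Dab2*. On the log2 scale it rose by 2.5 (SE 0.47, adjusted p = 0.000685), a value that the added 0.1 TPM holds down.

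*Hnf4a* ran the other way, from 0.923, 0.584, 1.17 and 1.12 TPM in control ESCs to 0.132, 0, 0.130, 0.164 and 0.140 in control EBs. No EB library reached the lowest ESC library (log2 fold change -2.34, SE 0.44, adjusted p = 0.000722). *Pdgfra* fell from 0.631, 0.756, 1.43 and 0.482 TPM to 0.257, 0.0861, 0.421, 0.212 and 0.474, again without overlap (log2 fold change -1.26, SE 0.42, adjusted p = 0.0329). *Sox17* fell from 0.601, 0.622, 0.693 and 0.337 TPM to 0, 0.283, 0.277, 0.0581 and 0.409, with 1 EB library above the lowest ESC library (log2 fold change -1.32, SE 0.42, adjusted p = 0.0279). *Pdgfra* is also a fibroblast gene. The summed level of 15 fibroblast markers was 252 to 338 TPM in control ESCs and 35.8 to 70.6 in control EBs, with 8 of the 15 called lower and 2 higher, and its part in the lower *Pdgfra* value was not tested.

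The 3 remaining genes were not called between control ESCs and EBs. *Sox7* had a log2 fold change of 1.52 (adjusted p = 0.0568), and the value of 1.38 in a fit that held replicate number as a block passed (SE 0.40, adjusted p = 0.0110). *Gata4* and *Gata6* had log2 fold changes of -0.53 and -0.86 (adjusted p = 0.320 and 0.346). *Gata6* was at 0.490, 1.73, 1.96 and 0.991 TPM in control ESCs and at 0.361, 0.363, 0.355, 1.12 and 1.19 in control EBs, so the groups overlapped. Without control EB replicate 4, or without control ESC replicate 2 or 3, or without replicates 2 and 3 or replicates 4 and 5 of every group, 3 of the 8 genes were called.

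**Figure D1:**
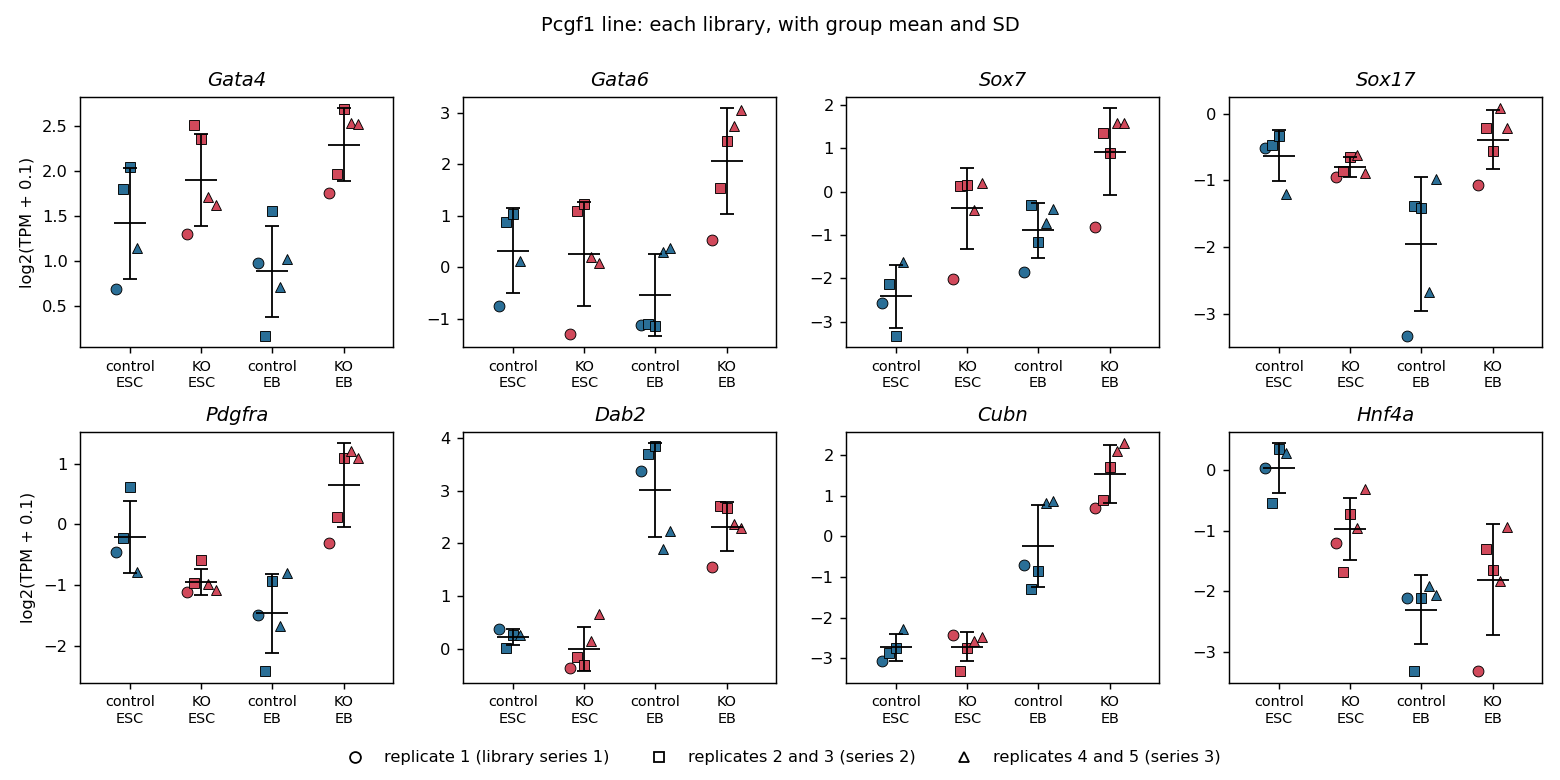
TPM of the 8 genes in the *Pcgf1* line, 1 panel per gene, with log2(TPM + 0.1) on the vertical axis and the 4 groups on the horizontal one. Points are libraries (4 control ESC, 5 in each other group), shaped by library series, and bars are group means with SD. *Pdgfra* spans 0.0861 to 0.474 TPM over control EBs and 0.710 to 2.21 over *Pcgf1*-KO EBs, while *Dab2* is higher in EBs than in ESCs in both states.

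The next question was what loss of *Pcgf1* changes at each stage. In EBs, *Gata4*, *Gata6*, *Pdgfra* and *Cubn* were higher without *Pcgf1*, so 4 of 8 genes were called, all upward, where 1.95% of all genes were called and 1.08% were called higher. The median log2 fold change of the 8 was 1.66, beside -0.03 over all genes. *Sox7* and *Sox17* were higher in each of the 5 pairs of same-numbered libraries, but did not pass in this fit. They passed with replicate number as a block and in some fits with libraries left out. *Dab2* and *Hnf4a* were not called.

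Among the GATA factors, *Gata6* showed the larger difference. It was at 0.361, 0.363, 0.355, 1.12 and 1.19 TPM in control EBs and at 1.34, 2.79, 5.37, 6.57 and 8.19 in *Pcgf1*-KO EBs. The lowest *Pcgf1*-KO library lay above the highest control library, and its mean rose from 0.678 ± 0.436 (SD, n = 5) to 4.85 ± 2.78 (SD, n = 5). The log2 fold change was 2.60 (SE 0.57, adjusted p = 0.0223). *Gata4* was at 1.87, 1.03, 2.84, 1.54 and 1.93 TPM in control EBs and at 3.27, 3.80, 6.31, 5.67 and 5.64 in *Pcgf1*-KO EBs. These groups did not overlap either, with a log2 fold change of 1.40 (SE 0.34, adjusted p = 0.0361).

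*Pdgfra*, the receptor, had the smallest p-value of the 8 genes. It was at 0.257, 0.0861, 0.421, 0.212 and 0.474 TPM in control EBs and at 0.710, 0.990, 2.05, 2.21 and 2.05 in *Pcgf1*-KO EBs. Every *Pcgf1*-KO library exceeded every control library, and the log2 fold change was 2.11 (SE 0.39, adjusted p = 0.0074). The sum of the fibroblast markers was 22.9 to 36.7 TPM in *Pcgf1*-KO EBs and 35.8 to 70.6 in control EBs. *Lum* and *Fap* were at 0 in all 5 *Pcgf1*-KO EB libraries, as they were throughout some ESC groups of other lines. Of the 15 markers *Twist1* was called higher and *Thy1* lower. The part of fibroblasts in the *Pdgfra* difference was not tested. *Cubn* was at 0.509, 0.307, 0.451, 1.66 and 1.73 TPM in control EBs and at 1.51, 1.77, 3.15, 4.16 and 4.78 in *Pcgf1*-KO EBs. The groups overlapped through replicate 1, although each *Pcgf1*-KO library exceeded the control of its own number (log2 fold change 1.77, SE 0.44, adjusted p = 0.0474).

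For the SOX factors the calls varied with the fit. With a library or library series left out, limma's adjusted p ranged from 0.0205 to 0.641 for *Sox7* and 0.0277 to 0.429 for *Sox17*. *Sox7* was at 0.176, 0.710, 0.347, 0.510 and 0.653 TPM in control EBs and at 0.471, 2.45, 1.75, 2.88 and 2.88 in *Pcgf1*-KO EBs. Only replicate 1 fell within the control range. Its log2 fold change was 1.80 (adjusted p = 0.0964, with the block 0.00610). *Sox17* was at 0, 0.283, 0.277, 0.0581 and 0.409 TPM in control EBs and at 0.376, 0.760, 0.581, 0.958 and 0.764 in *Pcgf1*-KO EBs, with a log2 fold change of 1.56 (adjusted p = 0.0519, with the block 0.0163).

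*Dab2*, which rose in control EBs, was at 10.3, 12.8, 14.2, 3.60 and 4.64 TPM in control EBs and at 2.84, 6.44, 6.28, 5.09 and 4.77 in *Pcgf1*-KO EBs. The groups overlapped (log2 fold change -0.69, SE 0.37, adjusted p = 0.511), and *Dab2* was higher in *Pcgf1*-KO EBs in replicates 4 and 5 only. *Hnf4a* was at 0 to 0.423 TPM in *Pcgf1*-KO EBs, with a log2 fold change of 0.50 (adjusted p = 0.759).

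The count of 4 was not firm. It was 1 without control EB replicate 1 or 2 or *Pcgf1*-KO EB replicate 4 or 5, 2 without replicate 3 of either group or without *Pcgf1*-KO ESC replicate 4, 1 without replicates 2 and 3 of every group and 0 without replicates 4 and 5. It was 0 when only the EB groups were fitted and 6 with the block.

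In ESCs, loss of *Pcgf1* gave no call among the 8 genes by limma, with 2 at an unadjusted p under 0.05 and 0.641% of all genes called. *Sox7* was at 0.0685, 0.130, 0 and 0.224 TPM in control ESCs and at 0.149, 0.991, 1.01, 0.648 and 1.05 in *Pcgf1*-KO ESCs. It was higher in 4 of 4 same-numbered pairs, with a log2 fold change of 2.02 (adjusted p = 0.135), and it was called with the replicate block at 1.88 (SE 0.40, adjusted p = 0.0147) and without replicate 1 of every group (2.37, adjusted p = 0.0349). *Hnf4a* was at 0.923, 0.584, 1.17 and 1.12 TPM in control ESCs and at 0.335, 0.212, 0.503, 0.416 and 0.702 in *Pcgf1*-KO ESCs. It was lower in 4 of 4 pairs, with a log2 fold change of -1.01 (adjusted p = 0.514). *Pdgfra* was at 0.361, 0.412, 0.570, 0.404 and 0.374 TPM in *Pcgf1*-KO ESCs, lower than its controls in 4 of 4 pairs but not called (log2 fold change -0.73, adjusted p = 0.698), and the fibroblast sum there was 196 to 270 TPM beside 252 to 338 in controls. *Gata4*, *Gata6*, *Sox17*, *Dab2* and *Cubn* had log2 fold changes between -0.24 and 0.48. Of these, *Gata4* was also higher in 4 of 4 pairs and *Dab2* lower in 4 of 4, so such agreement also occurred with small differences. The share of all genes with such agreement was not measured.

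From *Pcgf1*-KO ESCs to *Pcgf1*-KO EBs, 4 of 8 genes rose and none fell, where 18.3% of all genes were called and 8.13% rose. *Cubn* went from 0.0859, 0, 0.0484, 0.0667 and 0.0795 TPM to the EB values above (log2 fold change 4.25, SE 0.44, adjusted p = 2.11e-06). *Dab2* went from 0.683, 0.799, 0.711, 1.01 and 1.48 TPM to 2.84 to 6.44 (2.32, SE 0.37, adjusted p = 0.000171). *Gata6* went from 0.305, 2.03, 2.23, 1.04 and 0.958 TPM to 1.34 to 8.19 (1.80, SE 0.57, adjusted p = 0.0338). *Pdgfra*, which fell between control ESCs and EBs, rose here (1.59, SE 0.39, adjusted p = 0.0072). *Sox7* did not pass by limma (1.31, adjusted p = 0.104), but it did with the replicate block (1.31, SE 0.37, adjusted p = 0.0117). Without replicates 4 and 5 of every group, 2 of the 8 were called.

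The difference between the effect of *Pcgf1* loss in EBs and in ESCs was tested as an interaction. None of the 8 genes was called by limma, with 5 at an unadjusted p under 0.05, and 0.00486% of all genes were called. *Pdgfra* had the smallest p, with an effect 2.85 higher in EBs on the log2 scale (SE 0.57, adjusted p = 0.116). With the replicate block *Pdgfra* (2.93, adjusted p = 0.0117) and *Gata6* (2.81, adjusted p = 0.0403) were called.

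In the point mutant line the GATA factors were already higher in mutant ESCs. *Gata4* and *Gata6* were called there, where 2.54% of all genes were called and 2.34% were called higher, and 6 of the 8 genes had an unadjusted p under 0.05. In mutant EBs *Gata6* and *Pdgfra* were called, where 4.53% of all genes were called and 3.76% were called higher. The median gene itself stood 0.12 higher in mutant ESCs and 0.10 higher in mutant EBs on the log2 scale, and scaling by median ratios removed this shift.

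*Gata4* was at 0.586 and 0.877 TPM in control ESCs and 4.51 and 7.69 in mutant ESCs (log2 fold change 2.87, SE 0.42, adjusted p = 0.0245). In EBs it was at 3.40 and 2.08 TPM in controls and 7.48 and 10.3 in mutants, which did not pass (1.69, adjusted p = 0.0696). With 2 libraries a group, values often fail to overlap by chance, so a lack of overlap is not counted as support in this line. *Gata6* was at 2.13 and 1.52 TPM in control ESCs and 11.04 and 8.73 in mutant ESCs (2.38, SE 0.28, adjusted p = 0.0143), and at 3.99 and 3.73 in control EBs and 12.7 and 11.3 in mutant EBs (1.61, SE 0.28, adjusted p = 0.0257). Its mutant levels at both stages thus lay above all of its control levels.

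*Sox17* was at 0.485 and 0.344 TPM in control ESCs and 2.05 and 1.33 in mutant ESCs, and at 0.630 and 0.409 in control EBs and 3.85 and 1.74 in mutant EBs. The log2 fold changes of 1.78 and 2.15 did not pass (adjusted p = 0.128 and 0.0633). *Sox7*, its paralogue, was at 1.27 and 1.10 TPM in control ESCs and 1.06 and 1.44 in mutant ESCs, a difference of 0.06 on the log2 scale that turned to -0.08 when scaled by median ratios. *Pdgfra* was at 0.885 and 0.813 TPM in control ESCs and 2.29 and 2.09 in mutant ESCs (1.27, adjusted p = 0.111), and at 1.28 and 0.966 in control EBs and 4.62 and 4.44 in mutant EBs (1.93, SE 0.35, adjusted p = 0.0291). The fibroblast sum moved with it, from 56.6 to 59.9 TPM in control ESCs to 115 to 131 in mutant ESCs, and from 41.1 to 47.4 in control EBs to 112 to 121 in mutant EBs. 3 of the 15 markers in ESCs and 6 in EBs were called higher, *Lum* was at 0 in every library of 3 of the 4 groups, and their part in the *Pdgfra* difference was not tested.

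The uptake genes and *Hnf4a* had another pattern. *Cubn* was at 0.322 and 0.318 TPM in control ESCs and 0.146 and 0.0648 in mutant ESCs, and at 4.75 and 2.35 in control EBs and 0.813 and 1.50 in mutant EBs. The log2 fold changes of -1.06 and -1.51 did not pass (adjusted p = 0.380 and 0.156). *Hnf4a* was at 2.20 and 2.16 TPM in control ESCs and 0.413 and 0.774 in mutant ESCs (-1.77, adjusted p = 0.0961), and at 1.67 and 1.28 in control EBs and 0.800 and 0.488 in mutant EBs (-1.10, adjusted p = 0.225). *Dab2* was at 1.43 and 1.05 TPM in control ESCs and 4.18 and 4.60 in mutant ESCs (1.76, adjusted p = 0.0725), while its EB groups, 8.27 and 5.91 against 3.47 and 6.99, overlapped. The interaction called none of the 8 by limma, with 1 at an unadjusted p under 0.05 (*Dab2*, -2.25, adjusted p = 0.493) and 0.00986% of all genes called.

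Between control ESCs and control EBs of this line, *Cubn* (log2 fold change 3.04, SE 0.52, adjusted p = 0.0226) and *Dab2* (2.42, SE 0.40, adjusted p = 0.0200) rose, where 4.73% of all genes were called and 2.73% were called higher. Between mutant ESCs and mutant EBs none of the 8 was called by limma, with 2 at an unadjusted p under 0.05 and 0.133% of all genes called. With 2 libraries a group these calls were fragile. Leaving out any one library gave 0 calls in mutant ESCs and 0 or 1 in the other 2 comparisons, and fitting only the groups compared gave 0 in mutant ESCs and in mutant EBs.

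**Figure D2:**
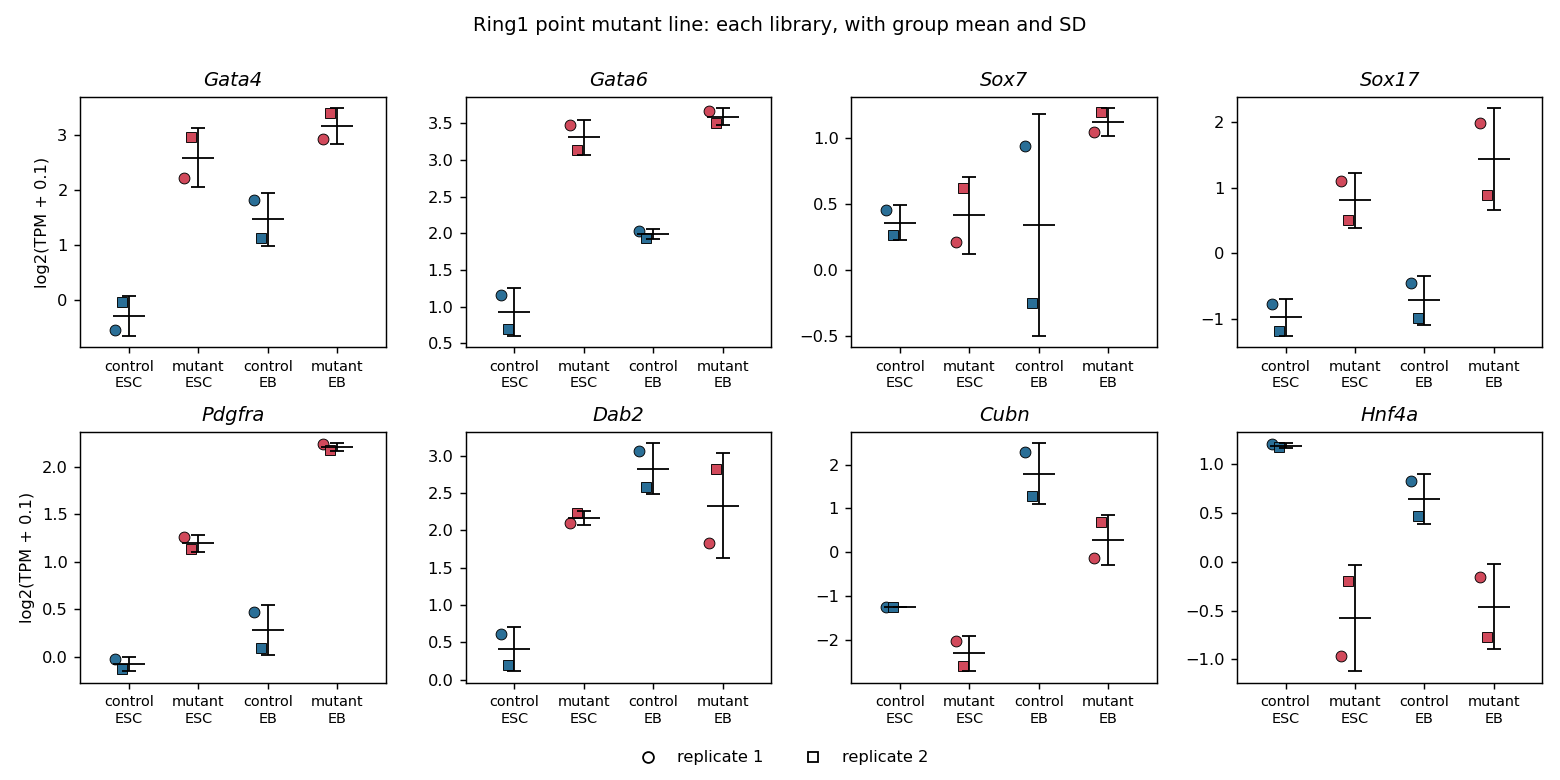
TPM of the 8 genes in the point mutant line, 1 panel per gene, with log2(TPM + 0.1) on the vertical axis, 2 libraries per group as points, and group means with SD as bars. *Gata6* is at 8.73 to 12.7 TPM in the 4 mutant libraries and 1.52 to 3.99 in the 4 control libraries.

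**Figure D3:**
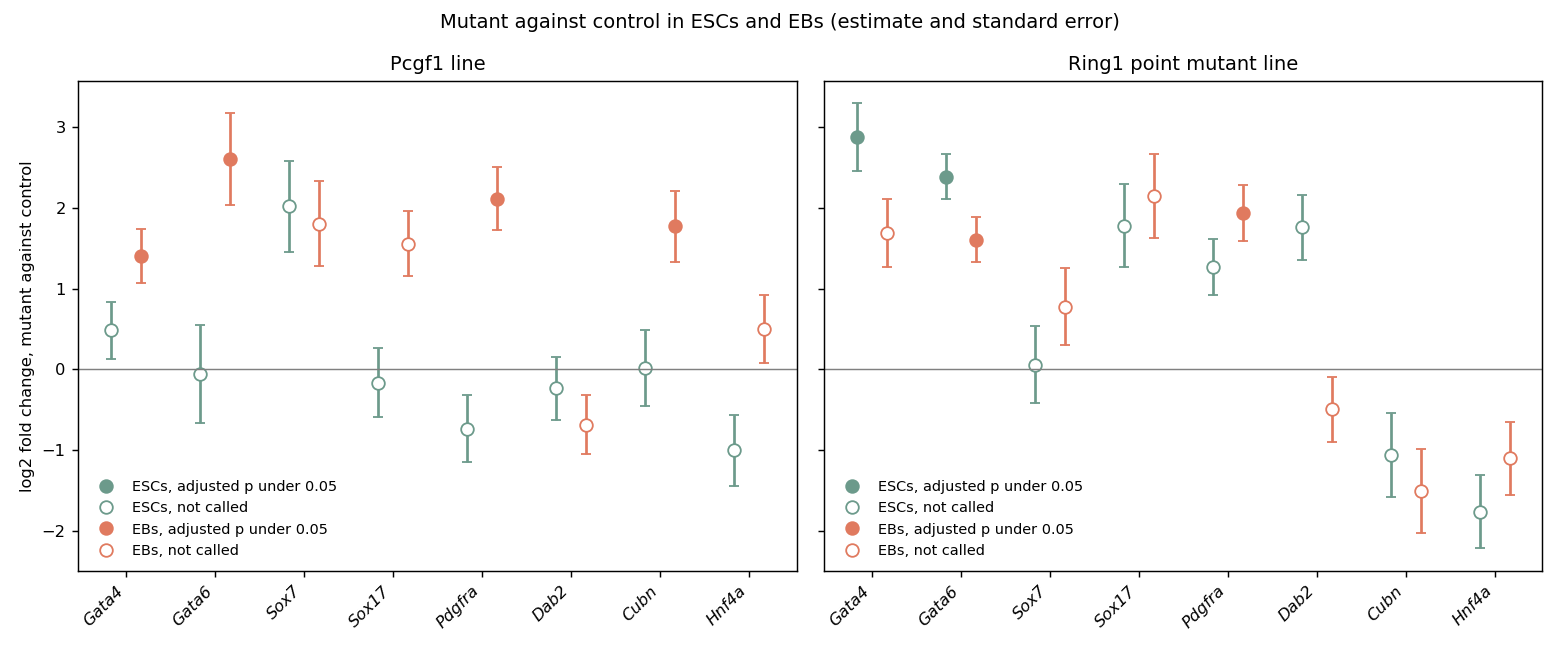
Log2 fold change of mutant over control, with bars of 1 standard error, for the 8 genes in ESCs and EBs of the *Pcgf1* and point mutant lines, with filled points for adjusted p under 0.05. *Gata6* stands at 2.60 in *Pcgf1*-KO EBs and -0.06 in *Pcgf1*-KO ESCs, and at 1.61 and 2.38 in point mutant EBs and ESCs.

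Other genes of the same lineage were followed through lists that leave the 8 genes out. The lists were chosen by hand with earlier results of these data known. Of 10 endoderm factors, 2 rose in *Pcgf1*-KO EBs, *Foxq1* (log2 fold change 2.66, adjusted p = 0.0072) and *Hhex* (0.93, adjusted p = 0.0085), and the list median was 0.45. Of 11 genes of the parietal endoderm matrix 3 rose, the collagen IV genes *Col4a2* (1.34) and *Col4a1* (1.21) and the collagen chaperone *Serpinh1* (0.59), with a list median of 0.39. None of 14 visceral endoderm genes tested was called by limma, with 1 at an unadjusted p under 0.05 (list median -0.03). Of 9 signalling genes *Pdgfa*, which encodes a ligand of PDGFRA, rose (1.50, adjusted p = 0.0385). In *Pcgf1*-KO ESCs limma called none of the endoderm factors, matrix genes or visceral endoderm genes, with 0, 1 and 4 at an unadjusted p under 0.05, and of the signalling genes *Bmp4* rose (2.00, adjusted p = 0.0366).

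In the point mutant line, 2 of 10 endoderm factors rose in ESCs, *Foxa1* (2.5) and *Gata5* (1.97), and *Hhex* (1.56) in EBs. Of the parietal endoderm matrix genes, *Col4a1* (1.53) and the secreted matrix gene *Sparc* (0.68) rose in ESCs, and *Col4a2* (1.90), *Col4a1* (1.84) and *Sparc* (0.75) in EBs. These matrix genes are also made by fibroblasts. Of 15 visceral endoderm genes, *Rbp4*, a retinol carrier, rose in ESCs (2.05), and *Cited1* (2.82), *Rbp4* (2.10) and *Amn* (1.57), whose product anchors cubilin at the membrane, rose in EBs. Of the signalling genes the receptor *Fgfr2* rose in ESCs (2.11), and 4 rose in EBs, led by *Bmp2* (2.28), *Pdgfa* (1.82) and *Bmp4* (1.18). None of these 4 lists had a gene called lower at either stage of this line.

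Lists for other cells in which the GATA and SOX factors act were measured beside them. In *Pcgf1*-KO EBs none of 6 endothelial and none of 7 cardiac genes was called by limma, with 5 and 3 at an unadjusted p under 0.05 and list medians of -0.69 and 0.17, and of 9 primitive streak and definitive endoderm genes *Eomes* rose (1.70). 2 of 7 naive pluripotency genes, *Tfcp2l1* (1.52) and *Nr0b1* (1.26), also rose there and none of 6 formative epiblast genes was called by limma, with 2 at an unadjusted p under 0.05. In *Pcgf1*-KO ESCs, 1 gene of these 5 lists was called, *Otx2*, which fell (log2 fold change -2.18). In point mutant EBs 3 of 7 cardiac genes rose, *Hand2* (3.29), *Hand1* (3.10) and *Nkx2-5* (2.37), as did 2 of 9 streak genes, *T* (2.88) and *Mesp1* (2.69). 2 of 7 naive genes, *Tbx3* (2.05) and *Klf4* (1.19), rose as well, the endothelial gene *Pecam1* fell (log2 fold change -1.01), and 4 of 6 formative genes fell, led by *Fgf5* (log2 fold change -3.36), while *Sox3* rose (1.60). In point mutant ESCs *Nkx2-5* (2.74), *Hand1* (2.73), *Mesp1* (2.14) and *Sox3* (1.76) rose, and *Pecam1* (log2 fold change -1.02) and *Klf2* (-0.93) fell. The part of cardiac cells in the *Gata4* and *Gata6* values of this line was not tested.

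The Ring1A/B line held the highest levels of *Gata4*, *Gata6* and *Pdgfra* in the series. In the mutant EB libraries, for which label and file name are the same, *Gata6* was at 67.5 and 68.2 TPM, *Gata4* at 33.4 and 32.9, and *Pdgfra* at 24.6 and 24.2. *Sox7* was at 7.12 and 7.41 TPM, *Sox17* at 6.69 and 7.50, *Dab2* at 12.1 and 10.9, *Cubn* at 13.3 and 14.5, and *Hnf4a* at 0.720 and 0.821. The control ESC libraries, again the same by both sources, had *Gata6* at 1.74 and 1.20 TPM, *Gata4* at 3.66 and 4.21, *Pdgfra* at 0.390 and 0.395, and *Cubn* at 0.258 and 0.161. 7 of the 8 genes were higher in these mutant EB libraries than in any other library of the line, and *Hnf4a* was not. Of all 20344 genes above 0 in the line, 21.3% were higher in this way.

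The other libraries of this line carry crossed names. Those labelled mutant ESC are named as control EBs, with *Fgf5* at 27.98 and 27.5 TPM, and those labelled control EB are named as mutant ESCs, with *Fgf5* at 0.540 and 0.791. The libraries labelled mutant ESC had *Gata4* at 3.82 and 3.87 TPM, *Gata6* at 2.17 and 1.56, *Pdgfra* at 0.604 and 0.502, *Dab2* at 6.28 and 5.07, and *Cubn* at 1.48 and 1.67. The libraries labelled control EB had *Gata4* at 12.3 and 12.4 TPM, *Gata6* at 8.42 and 8.01, *Pdgfra* at 3.24 and 2.85, *Dab2* at 2.56 and 3.03, and *Cubn* at 0.254 and 0.137. *Gata4*, *Gata6* and *Pdgfra* thus set the second pair apart from the first, and *Dab2* and *Cubn* the first from the second.

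Tested by label, 24 of 32 comparisons of the 8 genes over the 4 contrasts were called, with 25 at an unadjusted p under 0.05. Labelled control EBs against control ESCs gave 6 genes, all higher, where 43.2% of all genes were called and 28.6% higher, and labelled mutant EBs against mutant ESCs gave 8, all higher, where 56.5% were called and 36.6% higher. Labelled mutant ESCs against control ESCs gave 2 higher and 1 lower where 25.2% and 23.6% of all genes were, 48.8% in all, a share near that of the 8. Labelled mutant EBs against control EBs gave 7 higher where 33.3% were called and 19.3% were called higher. The median gene stood 0.12 and 0.20 higher on the log2 scale in the first 2 of these contrasts. By file name, the first 2 contrasts are mutant against control, in ESCs and then in EBs. The last 2 are EBs against ESCs, in controls and then in mutants. *Klf4* followed the stage in the file name. It was at 9.90 and 7.38 TPM in the libraries labelled mutant ESC and 665 and 709 in those labelled control EB. What the contrasts compare depends on which source is right.

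One quantity does not depend on it. The difference between the mutant effects at the 2 stages is the same number if the labelled mutant ESC and labelled control EB groups trade places, as the file names have it. By this interaction 7 of the 8 genes were called, all upward, where 34.8% of all genes were called and 18.9% were called upward. The values were 3.15 for *Cubn* (SE 0.43, adjusted p = 0.00127), 2.77 for *Sox7*, 2.70 for *Gata6* (SE 0.29, adjusted p = 0.000407), 2.56 for *Pdgfra*, 2.14 for *Sox17*, 2.00 for *Hnf4a* and 1.45 for *Gata4* on the log2 scale. *Dab2* was the exception at -0.69 (SE 0.27, adjusted p = 0.0923). The fibroblast sum was 198 to 204 TPM in control ESCs, 50.9 to 51.9 in the libraries labelled mutant ESC, 502 to 532 in those labelled control EB and 131 to 133 in mutant EBs. By file name the sum was thus higher in mutants than in controls at both stages, as *Gata6* was, and lower in EBs than in ESCs in both states, where *Gata6* was higher in mutant EBs than in mutant ESCs and overlapped between the control stages. The part of fibroblasts in these values was not tested.

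In the *Pcgf6* line a pair of libraries stood apart. They are labelled control EB replicate 2 and mutant EB replicate 2, and both are named as mutant EBs. In them *Gata4* was at 16.6 and 23.6 TPM against 1.41 to 2.64 in the other 6 libraries, and *Gata6* at 7.23 and 13.6 against 0.893 to 1.41. *Sox7* was at 7.80 and 10.6 TPM against 0.482 to 0.728, and *Cubn* at 20.03 and 33.2 against 0.270 to 1.25. *Dab2* was at 30.1 and 39.7 TPM against 0.669 to 3.50, and *Pdgfra* at 5.17 and 9.40 against 0.293 to 0.565. *Sox17* (4.52 and 7.78 against 0.658 to 1.59 TPM) and *Hnf4a* (2.15 and 2.21 against 0.227 to 0.701 TPM) were apart in the same way. All 8 genes were thus above the range of the other 6 libraries, as were 19.6% of all 19695 genes above 0 in the line. *Pcgf6* was at 35.7 and 46.3 TPM in the pair and at 34.7 and 37.0 in the other libraries named mutant, all below every library named control. This pair was picked for these values, so no test was made. Some further endoderm genes, looked up after these values were seen, were also high in the pair: the cubilin partner *Amn* was at 73.9 and 75.2 TPM against 6.67 to 14.4, *Lrp2* at 28.9 and 62.7 against 1.40 to 5.31, and the laminin *Lama1* at 35.02 and 74.7 against 1.63 to 8.52. *Afp*, a late visceral endoderm product, was at 0.452 and 0.477 TPM against 0 to 0.304. The endoderm factor *Hhex* was not higher, at 8.43 and 10.97 TPM in the pair and 5.46 to 19.2 in the other 6 libraries. These further genes were picked by hand. How many genes of each endoderm list stood above the other 6 libraries was not counted, so they do not describe the lists. The fibroblast sum was 114 and 231 TPM against 20.3 to 163, and its part was not tested. By label none of the 32 comparisons of the 8 genes was called by limma in this line, with 0 at an unadjusted p under 0.05 and the pair split between control and mutant, and 0% of all genes were called. By file name each labelled group of this line holds libraries of both stages, so this lack of calls cannot show a lack of change.

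The *Pcgf2/4* and *Pcgf3/5* lines stayed low. None of the 32 labelled comparisons in either line was called by limma, with 3 at an unadjusted p under 0.05 in the first and 1 in the second, and with labels and file names apart in 6 and 5 of 8 libraries. By file name, the labelled groups of the *Pcgf2/4* line and the labelled mutant groups of the *Pcgf3/5* line mix the stages. The labelled control groups of the *Pcgf3/5* line do not mix the stages, but they mix control and mutant. Since the 4 groups of a line share 1 spread in the fit, this lack of calls cannot show a lack of change. Of all genes, 0% were called in the *Pcgf2/4* line. In the *Pcgf3/5* line 0.0601% were called between labelled control ESCs and EBs, 0.0401% in labelled mutant ESCs and 0.0301% in labelled mutant EBs. In the *Pcgf2/4* line *Gata4* ranged from 0.685 to 3.64 TPM, *Gata6* from 0.376 to 1.21, *Sox7* from 0.0659 to 1.16, *Sox17* from 0.445 to 1.06 and *Pdgfra* from 0.178 to 0.777. *Cubn* was at 0.590 to 0.906 TPM in the 4 libraries named EB and at 0.0190 to 0.110 in the 4 named ESC, and *Dab2* at 1.68 to 3.08 and 0.501 to 0.838. In the *Pcgf3/5* line *Gata4* reached 0.830 TPM at most, *Gata6* 0.978, *Sox7* 0.469, *Pdgfra* 0.374, *Sox17* 0.198 and *Cubn* 0.179. *Hnf4a* was the exception, at 1.89 to 2.77 TPM in the 4 libraries named ESC and 0.982 to 1.15 in the 4 named EB. The value of 2.77 was the highest of *Hnf4a* in the series, and this split by file name was not tested.

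**Figure D4:**
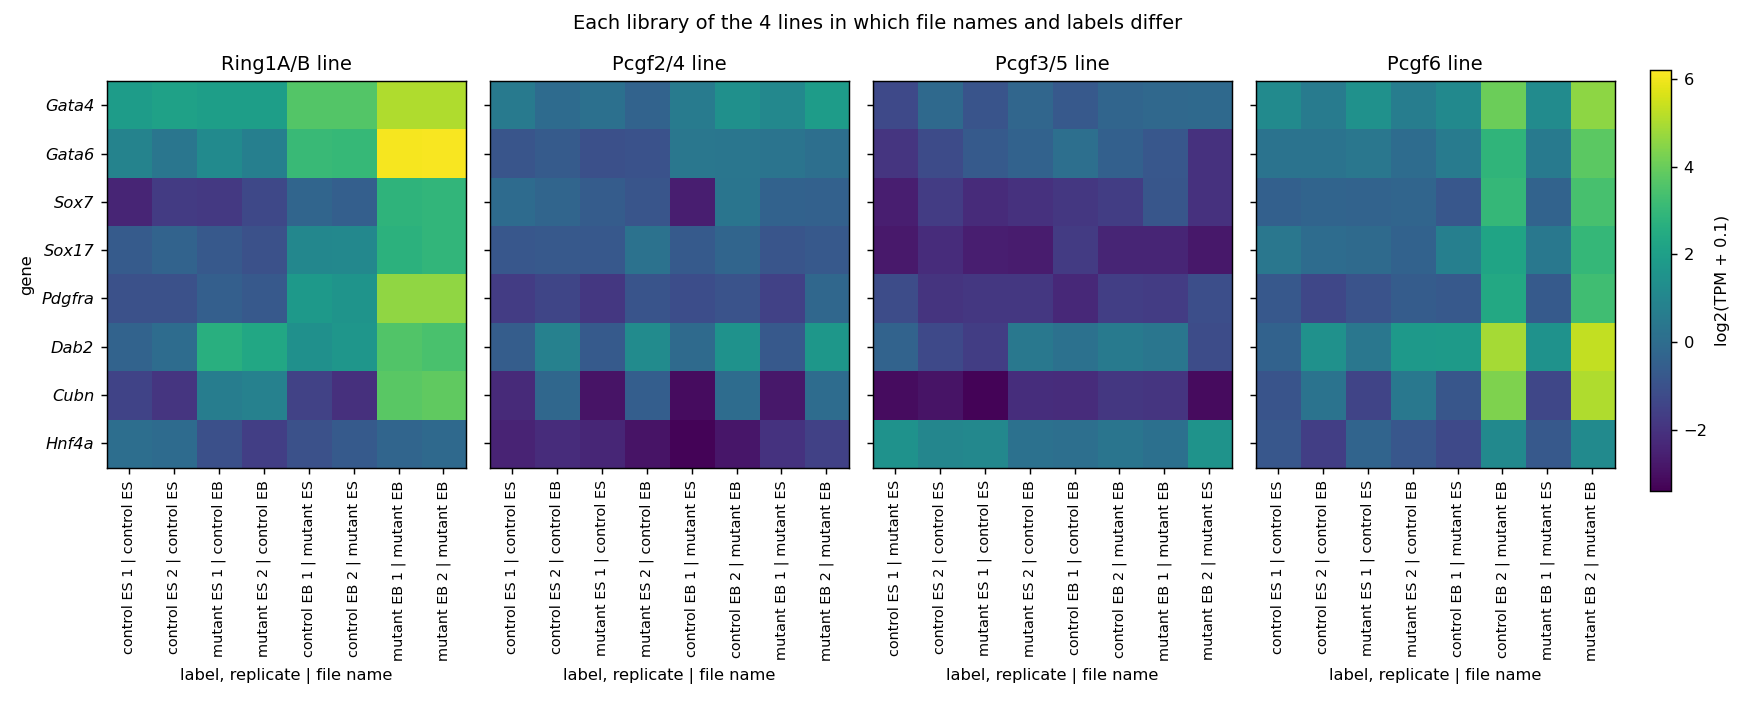
Heat maps of the 8 genes (rows) in each library (columns) of 4 lines, coloured by log2(TPM + 0.1). Column names give the label with its replicate and then the condition in the file name, and the bright columns are the Ring1A/B mutant EB libraries, with *Gata6* at 67.5 and 68.2 TPM, and the *Pcgf6* libraries labelled EB replicate 2, with *Gata4* at 16.6 and 23.6.

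The 8 genes did not vary as one block. Over the 59 libraries, each centred on its line's mean of log2(TPM + 0.1), Pearson's r was 0.84 between *Gata4* and *Gata6*, 0.87 between *Gata6* and *Pdgfra*, 0.85 between *Sox17* and *Pdgfra*, and 0.79 between *Dab2* and *Cubn*. Without the Ring1A/B and *Pcgf6* lines, 43 libraries, these were 0.74, 0.72, 0.68 and 0.70. In those 43 libraries *Gata4* and *Dab2* had r = 0.14, and *Dab2* and *Hnf4a* r = -0.57. Among *Gata4*, *Gata6*, *Sox17* and *Pdgfra* the 6 pairs had r = 0.58 to 0.74. *Sox7* had r = 0.56 with *Cubn* and 0.52 with *Gata6*, above its r of 0.39 with *Gata4*, 0.29 with *Sox17* and 0.29 with *Pdgfra*. *Hnf4a* had r between -0.25 and 0.09 with the other transcription factors and *Pdgfra*. These r are descriptions, since the libraries share lines, stages and treatments.

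Among 13724 genes with a mean of at least 1 TPM, the genes most like *Gata4* were *Col4a1* (r = 0.87), *Pdgfra* and *Gata6*, and those most like *Gata6* were *Pdgfra*, *Foxq1* (r = 0.87) and *Gata4*. *Sox17* was closest to *Pdgfra*, *Gata6* and *Col4a1* (r = 0.81), and *Pdgfra* to *Gata6*, *Sox17* and *Gata4*. *Sox7* was closest to *Srxn1* (r = 0.78), *Ccdc3* and *Foxq1*. *Dab2* was closest to *Lrp2* (r = 0.90), the gene of megalin, with which DAB2 works in endocytosis, then *Amot* and *Trib2*. *Cubn* was closest to *Stoml1* (r = 0.87), *Rgs20* and *Slc7a7*, and *Hnf4a* to *Lifr* (r = 0.71), *Gtf2h1* and *Lama1*.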

How the data were processed

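The authors deposited 1 table of TPM values per library, listing 24391 gene symbols. Per the submitters' processing notes, reads were aligned to mm9 with STAR 2.5.2b and DESeq2 was used. The step from counts to TPM is not given in the sources used here. Poly(A) RNA was sequenced single-end. Zeros are listed as deposited. Values were log2(TPM + 0.1) transformed and fitted within each line with limma 3.58.1 (R 4.3.3): a mean for each of the 4 labelled groups, 1 shared spread, empirical Bayes with a trend, two-sided tests, Benjamini-Hochberg adjustment over every gene that any library of that line lists above 0. An adjusted p under 0.05 was called. The fit was tested on simulated data. Fold changes on this scale understate changes of low genes. Figures and sequence counts used Python 3.11.15, pandas 2.3.3, numpy 2.4.6 and matplotlib 3.10.9. Sequences are RefSeq's.

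The members and the gene lists were chosen with earlier results of these data known. Named genes are the 8 members, the targeted and stage genes, the 3 genes most correlated with each member, and at most 3 genes per list, direction and comparison with the largest fold change among those called. The further endoderm genes of the *Pcgf6* line were added after their values were seen. In the *Pcgf1* line, replicate numbers of the labels were used to pair the libraries: in all 27 pairs of same-numbered libraries deviations from group means correlated (r = 0.317 to 0.653 over 13400 genes), so a fit with the number as a block is given where it changes a call. Only same-numbered libraries were compared, so these r cannot tell pairing by number from a shared library series. File headers put replicate 1, replicates 2 and 3, and replicates 4 and 5 of this line in 3 separate series of library names. These were also left out in turn, an alternative chosen after seeing the data. The title and another label of 1 *Pcgf1*-KO EB library give different replicate numbers (4 and 5), and the title was followed. Alternatives were a pseudocount of 1, a mean of at least 1 TPM, scaling by median ratios, the replicate block, the compared groups alone, and each library left out.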

Additional observations from a re-analysis of the deposited data

Results flagged for a closer look

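In the *Pcgf1* line, 32 groups of 4 or 5 libraries were tested for a library far from the others at Dixon's 95% level, which flags about 1 in 20 groups by chance, and 2 were flagged. *Pdgfra* in *Pcgf1*-KO ESC replicate 3 was at 0.570 TPM, above 0.361 to 0.412 in the other 4 libraries. *Hnf4a* in control EB replicate 2 was listed at 0 TPM, below 0.130 to 0.164 in the other 4.

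In the Ring1A/B line the mutant effect differed between EBs and ESCs for 7 of the 8 genes by the interaction in limma. Of all genes, 34.8% were called by it and 18.9% were called upward. Labels and file names differ in 4 of the 8 libraries of this line, but the interaction is the same by both. The differences on the log2 scale were 1.45 for *Gata4*, 2.70 for *Gata6*, 2.77 for *Sox7*, 2.14 for *Sox17*, 2.56 for *Pdgfra*, 3.15 for *Cubn* and 2.00 for *Hnf4a*, with adjusted p between 0.000217 and 0.0127.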

How the results depend on the processing

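Of the 19 values called among the 8 genes in the *Pcgf1* and point mutant lines, none changed sign under any alternative run. 11 moved by over 1.5 times, 10 of them with a pseudocount of 1, which holds down low genes. In the *Pcgf1* line that pseudocount gave 0.80 for *Cubn*, -0.80 for *Hnf4a*, -0.38 for *Sox17* and -0.48 for *Pdgfra* between control stages, 1.87 for *Cubn* and 0.83 for *Pdgfra* between KO stages, and 1.68 for *Gata6*, 0.98 for *Pdgfra* and 1.07 for *Cubn* in KO EBs. It gave 1.73 for *Cubn* between control stages of the point mutant line. Of these 10, *Pdgfra* between control stages lost its call (adjusted p = 0.0593 by limma). Without replicates 2 and 3 of every group *Pdgfra* between control stages was at -0.71, and without replicates 4 and 5 *Gata6* between KO stages was at 1.17, neither called. In the *Pcgf1* line *Dab2* and *Cubn* in both EB against ESC comparisons were called in all 27 alternatives. In *Pcgf1*-KO EBs, *Pdgfra* was called in 23 of 26, *Gata6* in 19 of 27, *Gata4* in 17 of 27 and *Cubn* in 7 of 27. The replicate block gave 1 call instead of 0 in *Pcgf1*-KO ESCs, 2 instead of 0 for the interaction, and 4 instead of 2 both between control stages and in mutant EBs of the point mutant line, where the numbers name only 2 pairs. It changed no other call count by over 1.5 times. In the *Pcgf3/5* line, where same-numbered libraries had r from -0.790 to 0.0823, a block with crossed EB numbers, added later, gave 0 calls. A mean of at least 1 TPM gave 2 calls instead of 5 between control stages of the *Pcgf1* line and 2 instead of 4 in *Pcgf1*-KO EBs, with 4 of the 8 genes tested. The compared groups alone gave 0 calls in *Pcgf1*-KO EBs and in both point mutant comparisons. With libraries or series left out, counts were 3 to 6 (control stages), 2 to 5 (*Pcgf1*-KO stages), 0 to 1 (*Pcgf1*-KO ESCs) and 0 to 6 (*Pcgf1*-KO EBs) in the *Pcgf1* line, and 0 to 1, 0 to 0 and 0 to 1 for control stages, mutant ESCs and mutant EBs of the point mutant line. The 24 calls of the Ring1A/B line ranged from 23 to 25 with a library left out, and from 22 to 25 over all alternatives. The cause of these changes was otherwise not tested.

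Uncalled values that turned sign were *Cubn* in *Pcgf1*-KO ESCs (-0.16 with the block), and *Sox7* with a pseudocount of 1 in the *Pcgf1* interaction (0.34) and between control stages of the point mutant line (0.019), and with median ratios in point mutant ESCs (-0.077). With a library, or one of the 3 library series of the *Pcgf1* line, left out they ranged, in that line, from -1.50 to 0.16 for *Gata6* between control stages, from -0.42 to 0.33 for *Gata6*, -0.38 to 0.035 for *Sox17* and -0.16 to 0.17 for *Cubn* in KO ESCs, from -0.0017 to 0.93 for *Hnf4a* in KO EBs, and from -0.62 to 0.42 for the *Sox7* interaction. The ends -1.50 and 0.16, -0.38 and 0.035, -0.16, -0.0017 and 0.93, and 0.42 came from leaving out a series. In the point mutant line they ranged from -0.61 to 0.58 for *Sox7* and -0.0033 to 0.52 for *Sox17* between control stages, from -0.33 to 0.66 for *Dab2* and -0.26 to 0.50 for *Hnf4a* between mutant stages, from -0.15 to 0.26 for *Sox7* in ESCs, from -0.99 to 0.00084 for *Dab2* in EBs, and from -0.18 to 0.91 for *Sox17* and -0.94 to 0.044 for *Cubn* in the interaction. TPM carry no depth, so differences of genes near 0, such as *Cubn* and *Hnf4a* in several groups, have no counting interval.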
